A study of Rattus norvegicus with 6 samples.

Results

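Quiet microglia were the microglia of these libraries in which at most 1 of 8 chosen heat shock and cytokine genes was detected. They were picked from single-cell droplet libraries (10x Genomics) of rat cerebral hemisphere by their unique molecular identifiers (UMIs, the counts of captured transcripts). A barcode with at least 2000 UMIs counted as microglia when at least 4 of 7 microglia genes were detected (*P2ry12*, *Tmem119*, *Cx3cr1*, *Gpr34*, *P2ry13*, *Csf1r*, *Trem2*). It could hold at most 1 of 4 border macrophage genes (*Mrc1*, *Cd163*, *F13a1*, *Pf4*) and at most 1 of 6 genes of other cells (*Cldn5*, *Flt1*, *Vtn*, *Aqp4*, *Mog*, *Cd3e*). It was quiet when at most 1 of 8 further genes was detected, 3 of the heat shock response (*Bag3*, *Dnaja4*, *Zfand2a*) and 5 of inflammation (*Il1a*, *Il1b*, *Ccl9*, *Icam1*, *Osm*). This rule found 2013 quiet barcodes among 42293 barcodes in all and among 13066 microglia. The 11053 microglia with 2 or more of the 8 genes are called other microglia. Because measured values of these cells chose them, the levels of the 25 genes of the rule, and every difference between quiet and other microglia, are given as a description.

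The CO group was 3 libraries from rats made to breathe carbon monoxide at 1000 ppm for 40 min and then at 3000 ppm for 20 min. Poisoning counted as severe when consciousness was impaired with carboxyhemoglobin above 60%. The NC group was 3 libraries from control rats, which the labels call negative controls and the design calls normal controls. Strain, age, sex and the time between exposure and tissue removal are not given in the sources used here. All hemispheres were dissociated with trypsin and DNase I in a warm water bath, a step that both groups share, and no sort of a cell type is named. The title of the study names CLCF1, NF-kB signalling and efferocytosis, the uptake of dead cells by macrophages, as its subject. Of the quiet microglia 1063 came from the CO libraries (371, 327 and 365) and 950 from the NC libraries (326, 305 and 319).

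Microglia are the resident macrophages of the brain. In the healthy brain they survey the tissue with fine processes, and receptors for nucleotides, fractalkine and lysophospholipids, together with CSF1 receptor signalling and the transcription factor Sall1, mark that state. Injury, cytokines, misfolded protein and the enzymatic dissociation of fresh tissue are each known to raise immediate early, heat shock and cytokine transcripts in microglia.

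The quiet cells held 5343935 UMIs in the CO libraries and 4253633 UMIs in the NC libraries. The median quiet cell held 4811 UMIs and 1608 detected genes in CO, against 4185.5 UMIs and 1453.5 genes in NC. Quiet cells were shallower than other microglia, whose medians were 6644 UMIs in CO and 5806 UMIs in NC. The 3 libraries of a group differed in quiet cells about as much as parts of 1 pool of cells would: the variance between libraries was on average 1.03 times that expected from the spread between cells in CO and 1.04 times in NC. The design names 3 rats per group, but a spread between libraries that is only that of cells measures no difference between animals. Each group was therefore counted as 1 sample, and no p-value is given for CO against NC. Levels are counts of the summed quiet cells scaled to 1000000 UMIs (CPM). Ratios are log2 of CO over NC after TMM scaling, each followed in parentheses by an exact 95% interval that covers counting error only. Calls at 2-fold or more were limited to genes with at least 30 UMIs whose log2 CPM averaged 4 or higher.

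The limit of the rule cut through a continuous distribution. None of the 8 genes was detected in 428 CO and 408 NC microglia and 1 of them in 635 CO and 542 NC microglia, and these were the members. Just outside the limit, 959 CO and 729 NC microglia carried 2 of the 8 genes. Depth grew with the number of genes: microglia with 1 of the 8 had a median of 5098 UMIs in CO and 4325.5 UMIs in NC, and those with 2 had 5632 UMIs in CO and 4866 UMIs in NC. Where a quiet cell carried 1 gene, that gene was most often *Dnaja4*, a cochaperone of HSP70, in 46.0% of such CO cells and 48.5% of such NC cells. *Bag3*, another HSP70 cochaperone, was the single gene in 22.0% of such CO cells and 17.0% of such NC cells. *Icam1*, a leukocyte adhesion molecule, was the single gene in 5.35% of such CO cells and 12.7% of such NC cells.

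Quiet cells made up 15.4% of microglia in CO (95% exact binomial interval 14.5% to 16.2%) and 15.5% in NC (14.6% to 16.4%). The CO libraries lay between 15.0% and 15.7%, within the range of the NC libraries at 14.7% to 16.5%. CO cells were deeper, and a deeper cell has more chances to show 1 of the 8 genes. Each barcode of at least 2000 UMIs was then thinned to 2000 UMIs and the whole rule was applied again. As microglia passed 4368 CO and 4382 NC barcodes, against 6919 CO and 6147 NC barcodes at full depth. Of these thinned microglia, 28.9% were quiet in CO (27.6% to 30.3%) and 24.6% in NC (23.3% to 25.9%). The CO libraries then lay between 28.4% and 29.6%, above all NC libraries at 23.5% to 25.9%. The quiet share therefore did not differ between groups beyond counting error at full depth. It was 4.34 percentage points higher in CO with the whole rule read at 2000 UMIs, where the microglia counted also changed. Among the microglia found at full depth, thinning for the 8 genes alone gave 25.4% in CO and 22.1% in NC, 3.28 points higher in CO.

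**Figure D1:**
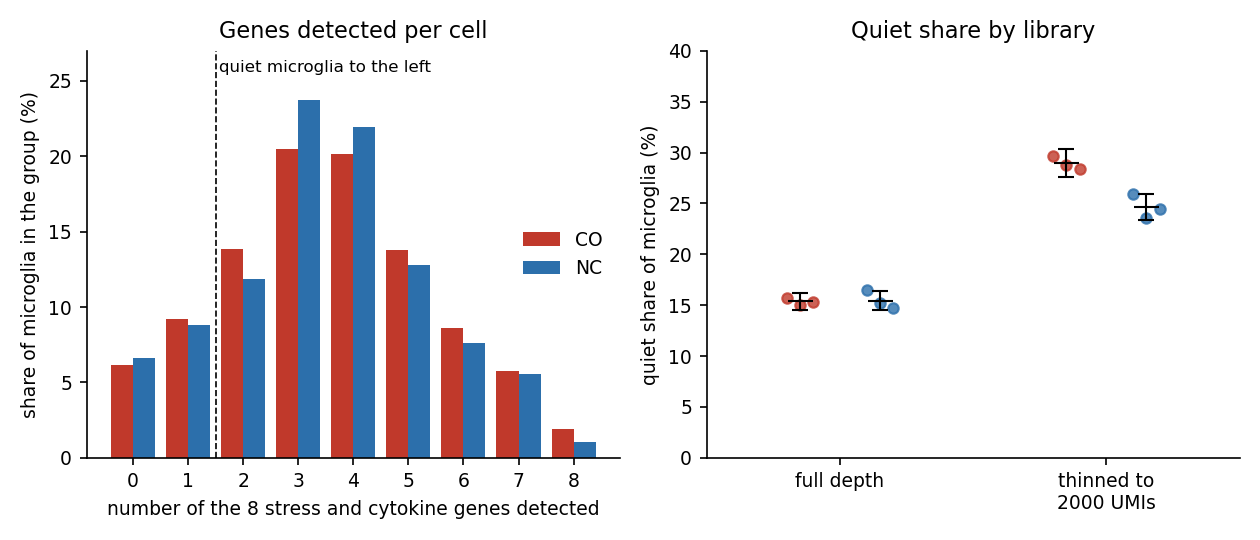
The left panel plots the share of microglia (%) of each group by the number of the 8 stress and cytokine genes detected, with quiet microglia left of the dashed line. The right panel plots the quiet share of microglia (%) per library as points and per group as a black bar with its 95% exact binomial interval: the groups overlap at full depth, and all CO libraries lie above all NC libraries once each cell is thinned to 2000 UMIs.

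Markers of microglia outside the rule were detected in most quiet cells at full depth. An endothelial gate of 2244 CO cells (median 6083.5 UMIs) and 2839 NC cells (median 5099 UMIs), picked by at least 3 of 5 endothelial genes and at most 1 of the 7 microglia genes, served as a cell type that should lack microglia transcripts. Because the gate limits microglia genes, its low shares of other microglia transcripts are partly set by that choice and are a description. *Slc2a5*, the fructose transporter of microglia and no gene of the rule or the gate, was detected in 54.3% of CO and 49.2% of NC quiet cells at 2000 UMIs (75.9% of CO and 68.9% of NC at full depth), against 0.0891% of CO and 0.247% of NC cells of the endothelial gate at 2000 UMIs (0.134% of CO and 0.458% of NC at full depth). *Ltc4s*, leukotriene C4 synthase, likewise outside the rule, was detected in 69.0% of CO and 73.4% of NC quiet cells at 2000 UMIs (86.6% of CO and 86.9% of NC at full depth), against 0.490% of CO and 0.951% of NC cells of the endothelial gate at 2000 UMIs (1.11% of CO and 1.87% of NC at full depth). Of genes outside the rule, *Cd3d* of T cells and the NK cell gene *Nkg7* had a UMI in 0 of 1063 CO cells, which allows a share of up to 0.282%, and in 0 of 950 NC cells, which allows a share of up to 0.316%. The border macrophage genes and *Cd3e* were limited by the rule, so their low levels are a description. *Cd163* and *Cd3e* had 0 UMIs, *Mrc1*, a mannose receptor of border macrophages, had 2 UMIs in CO and 10 UMIs in NC, and *Pf4*, a chemokine of border macrophages and platelets, was detected in 5.17% of CO and 3.05% of NC quiet cells at 2000 UMIs (9.69% of CO and 5.58% of NC at full depth). Of the quiet cells 9.97% in CO and 6.63% in NC carried 1 of the 4 border macrophage genes, the most that the rule allowed. The border macrophage list as a whole, some of whose genes microglia share, summed to 309 to 355 CPM in the CO libraries and 393 to 414 CPM in the NC libraries.

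Among genes of microglial identity, *P2ry12*, *P2ry13* and *Sall1* were lower in all CO libraries, and *Siglec5* and *Slc2a5* were higher in all of them. *P2ry12*, the ADP receptor that steers microglial processes towards injury, had 269.7, 268 and 263 CPM in the CO libraries, against 384, 393 and 407 CPM in the NC libraries. All NC libraries lay above all CO libraries, and the ratio was -0.56 (-0.67 to -0.46). *P2ry13*, its close relative, had 110.1, 118 and 124 CPM in the CO libraries, against 184, 177 and 197 CPM in the NC libraries, again without overlap, and a ratio of -0.66 (-0.82 to -0.51). Both genes served the rule, so their ratios are a description. *Sall1*, the transcription factor that maintains microglial identity and no gene of the rule, had 492, 525 and 490.2 CPM in the CO libraries, against 649, 683 and 663 CPM in the NC libraries. The NC libraries again lay above all CO libraries, at a ratio of -0.41 (-0.48 to -0.33). *Sall1* was seen outside microglia too. In an oligodendrocyte gate, described further on, it was detected in 31.6% of CO and 40.5% of NC cells at full depth. In thinned cells of that gate the shares were 10.0% in CO and 12.9% in NC. The part of oligodendrocyte transcripts in the *Sall1* ratio was not tested. The share of quiet cells with all 7 microglia genes detected was 11.5% in CO and 15.3% in NC.

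Other identity genes lay the other way or close to 0. *Siglec5*, a sialic acid receptor of the inhibitory kind, had 209.8, 236 and 231 CPM in the CO libraries, against 77.9, 106 and 97.9 CPM in the NC libraries. Every CO library stood above every NC library and the ratio was 1.27 (1.10 to 1.43), a 2.41-fold higher level in CO. *Slc2a5* had 633, 571 and 513 CPM in the CO libraries, against 382, 443 and 417 CPM in the NC libraries, also without overlap, at a ratio of 0.47 (0.39 to 0.56). *Csf1r*, the receptor for CSF1 and interleukin 34 on which microglia depend, had 2451 CPM in CO and 1971 CPM in NC at a ratio of 0.31 (0.27 to 0.35). *Tmem119*, a membrane protein used as a microglia marker, had 769.9, 716 and 866 CPM in the CO libraries, against 699.8, 818 and 745 CPM in the NC libraries, with the groups interleaved and a ratio of 0.06 (0.00 to 0.13). *Aif1*, the actin-binding protein IBA1, stood at 0.00 (-0.03 to 0.04). Of 33 measured homeostatic genes outside the rule, 20 had a ratio above 0 and 13 below it, with a median of 0.10. Over all 9668 genes with at least 30 UMIs, 49.9% had a ratio above 0 and 50.1% below it. The interval lay above 0 for 18 of these homeostatic genes and below 0 for 9, beside 24.9% and 24.1% of all genes. Without mixed barcodes, defined further on, 17 of them had a ratio above 0 and 16 below it, with a median of 0.00. The median was 0.0093 when libraries were scaled by total counts and 0.047 without NC replicate 01.

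**Figure D2:**
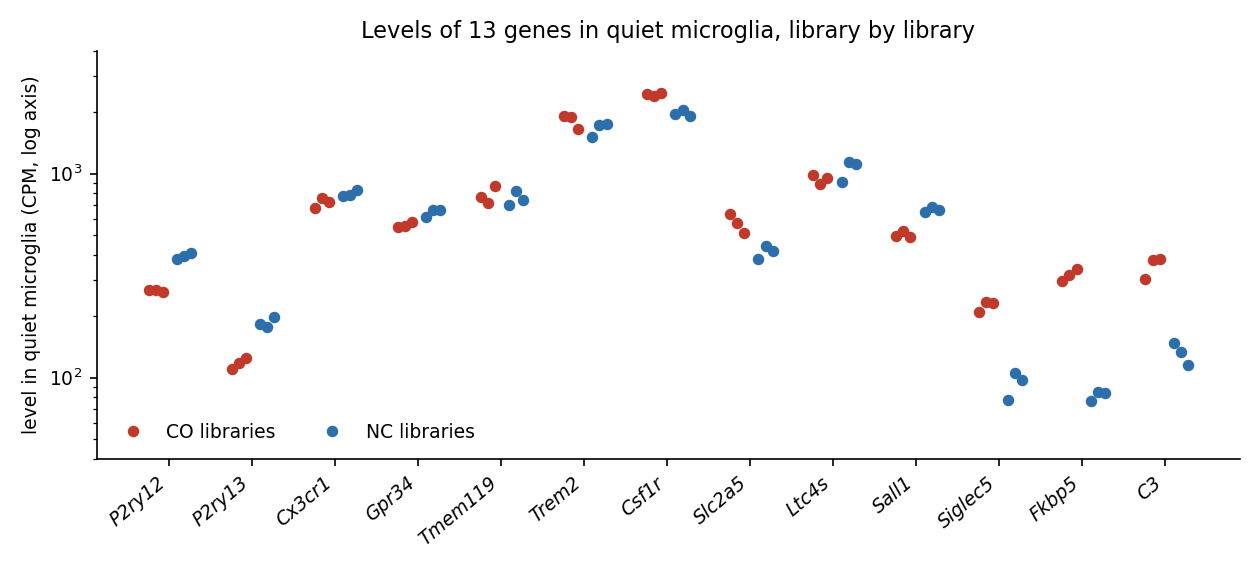
Each point is the level (CPM, log axis) of a gene in the quiet microglia of 1 library, with the 3 CO libraries left of the 3 NC libraries of each gene. *P2ry12*, *P2ry13* and *Sall1* lie lower in all CO libraries, *Slc2a5*, *Siglec5*, *Fkbp5* and *C3* lie higher in all CO libraries, and *Tmem119* is interleaved.

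Over all genes tested in quiet microglia, 101 of 6702 were at least 2-fold higher in CO, which is 1.51%, and 143 were at least 2-fold lower, which is 2.13%. The values of the 3 CO libraries and the 3 NC libraries did not overlap for 35.9% of genes. In other microglia 43 of 6417 genes were at least 2-fold higher, which is 0.67%, and 122 at least 2-fold lower, which is 1.9%. Quiet cells held fewer UMIs than other microglia, and the difference between these shares was not tested.

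The 15 genes with the highest ratios among those without overlap between libraries were between 3.26-fold and 5.89-fold higher in CO quiet microglia. *Ifit2*, an interferon-induced protein that binds viral RNA, led with 67.0, 67.1 and 74.9 CPM in the CO libraries, against 8.51, 12.3 and 14.9 CPM in the NC libraries and a ratio of 2.56 (2.13 to 3.01). Each CO library held several times the level of each NC library, and the ratio in other microglia was 1.05. *Trpv3*, a cation channel opened by warmth, had 128, 141 and 135 CPM in the CO libraries, against 32.1, 30.4 and 37.2 CPM in the NC libraries, at a ratio of 2.01 (1.75 to 2.28) here and 1.36 in other microglia. It was detected in 17.4% of CO and 5.89% of NC quiet cells at 2000 UMIs (32.1% of CO and 10.0% of NC at full depth), against 0.134% of CO and 0.106% of NC cells of the endothelial gate at 2000 UMIs (0.802% of CO and 0.845% of NC at full depth). An oligodendrocyte gate, built like the endothelial gate from 5 oligodendrocyte genes, held 1270 CO cells (median 10258.5 UMIs) and 3122 NC cells (median 9770 UMIs). *Trpv3* was detected there in 17.8% of CO and 4.58% of NC cells of the oligodendrocyte gate at 2000 UMIs (49.4% of CO and 16.7% of NC at full depth), so it was seen outside microglia too, and its ratio in quiet microglia without mixed barcodes was 2.02. *Fkbp5*, a cochaperone of the glucocorticoid receptor and one of its best known target genes, had 299, 319 and 342 CPM in the CO libraries, against 77.2, 84.6 and 83.8 CPM in the NC libraries. The groups lay far apart at a ratio of 1.97 (1.80 to 2.14), a 3.91-fold higher level in CO.

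The other genes of this set had diverse roles. *Tie1*, an orphan receptor tyrosine kinase known from endothelium, stood at 2.35 (1.85 to 2.88), while the endothelial list as a whole summed to 644 to 664 CPM in the CO libraries and 572 to 609 CPM in the NC libraries. *Mycl*, a MYC family transcription factor, stood at 2.16 (1.73 to 2.62) and *Fcrla*, an Fc receptor-like protein, at 1.85 (1.49 to 2.22). *Cd4*, which rat macrophages carry as well as helper T cells, had 64.3, 72.2 and 59.7 CPM in the CO libraries, against 19.0, 24.6 and 14.9 CPM in the NC libraries, without overlap, at 1.75 (1.40 to 2.11). *Mylk*, myosin light chain kinase, stood at 1.71 (1.44 to 1.98) here and at 0.59 in other microglia. *Smim3*, *Hist1h2ah*, *Gcnt2*, *Zfat* and *Patj* were further members of the set, with ratios of 2.12, 2.08, 1.91, 1.83 and 1.76.

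*Tnfsf18*, the ligand of the T cell receptor GITR, was the member of this set with the least change elsewhere. It had 61.6, 81.1 and 91.2 CPM in the CO libraries, against 19.6, 25.3 and 21.6 CPM in the NC libraries in quiet cells, without overlap, at a ratio of 1.81 (1.49 to 2.15). In other microglia it had 119 CPM in CO and 115 CPM in NC, at a ratio of 0.06, and the difference between the classes was not tested. The direction depended on the limit of the rule: cells with none of the 8 genes gave -1.31. Of the 15 genes, 12 were at least 2-fold higher in other microglia too.

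*Fcrla*, *Mycl* and *Plac8* also belong to a list of monocyte and dendritic cell genes, so that list was read beside them. *Plac8*, a small cysteine-rich protein of myeloid cells, had 211, 202 and 194 CPM in the CO libraries, against 54.3, 75.2 and 61.5 CPM in the NC libraries, without overlap, at 1.68 (1.49 to 1.88). Of 10 measured genes of the list 7 had a ratio above 0 and 3 below it, with a median of 0.67, or 0.36 in thinned cells. Its summed level was 2427 to 2631 CPM in the CO libraries and 2047 to 2155 CPM in the NC libraries. *Flt3*, a growth factor receptor of dendritic cells, had a UMI in 0.188% of CO and 0.421% of NC quiet cells at 2000 UMIs (0.564% of CO and 0.632% of NC at full depth), and *Cd74*, the invariant chain of class II antigen presentation, had a ratio of -0.25 (-0.38 to -0.12). The part of such cells in the higher ratios was not tested.

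Transcripts of myelinating cells filled most of the low end. The 15 genes with the lowest ratios without overlap were 7.40-fold to 22.4-fold lower in CO, and 8 of them are on the list of oligodendrocyte markers. *Ugt8*, which makes the galactolipids of myelin, had 3.27, 5.75 and 12.9 CPM in the CO libraries, against 342, 92.6 and 49.3 CPM in the NC libraries. NC levels were several times those of CO, at a ratio of -4.49 (-5.00 to -4.02). *Ermn*, an oligodendrocyte cytoskeletal protein, stood at -4.30 (-4.72 to -3.91). *Mag*, *Mal*, *Cldn11* and *Ptgds*, all myelin or oligodendrocyte genes, stood at -2.89, -3.68, -3.69 and -4.27, and *Mog*, a gene of the rule, at -3.91. Others of the set were *Edil3*, *Pex5l*, *Ptprd*, *Slain1*, *Stmn4*, *Tmeff2* and *Tubb4a*. All 16 measured oligodendrocyte markers had a ratio below 0, with a median of -3.13. Their summed level was 569.7 to 1265 CPM in the CO libraries and 3539 to 8858 CPM in the NC libraries.

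These transcripts sat in few barcodes. At least 0.5% of UMIs came from oligodendrocyte genes in 7 CO and 33 NC quiet barcodes, which held 31.6% of all oligodendrocyte UMIs of quiet cells in CO and 85.1% in NC. The median quiet barcode held 0.0427% such UMIs in CO and 0.0832% in NC. Leaving out all barcodes with at least 0.5% of UMIs from any of 7 lists of other cells removed 32 CO barcodes (3.01%) and 64 NC barcodes (6.74%), a choice made after seeing these values. The median of the oligodendrocyte list was then -1.35 and its summed level 559.6 to 564 CPM in the CO libraries and 904 to 1004 CPM in the NC libraries. Genes at least 2-fold lower numbered 80 of 6593 without these barcodes, which is 1.21%, and genes at least 2-fold higher numbered 100, which is 1.52%. Libraries did not overlap for 34.9% of genes.

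**Figure D3:**
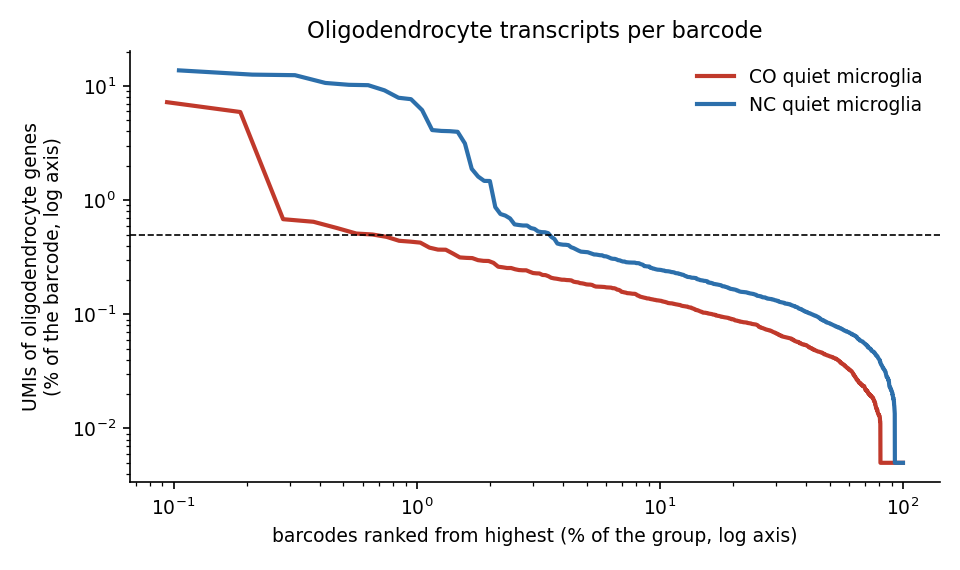
Quiet barcodes of each group are ranked by the share of their UMIs (%, log axis) that comes from oligodendrocyte genes, against their rank in percent of the group (log axis). Barcodes with none are drawn at 0.005%. The dashed line marks 0.5%, which 7 CO and 33 NC barcodes reach.

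Without the mixed barcodes, the low end changed in part. Of the 16 measured oligodendrocyte markers 12 were still at least 2-fold lower, beside 498 of 9647 genes with at least 30 UMIs. The 15 lowest genes without overlap then had ratios from -2.62 to -1.46, and from -4.27 to -1.25 with the mixed barcodes. *Gadd45b*, a stress sensor induced by NF-kB, was lowest, with 5.99, 8.30 and 10.7 CPM in the CO libraries, against 38.0, 60.8 and 35.8 CPM in the NC libraries over all quiet cells. The NC libraries lay far above the CO libraries, at a ratio of -2.62 without mixed barcodes and -2.42 (-2.93 to -1.94) with them, against -0.73 in other microglia. *Dynll1*, a light chain of the dynein motor, had 149.8, 132 and 133 CPM in the CO libraries, against 441, 350.2 and 363 CPM in the NC libraries, without overlap, at -1.52 without mixed barcodes and -1.07 in other microglia. *Icam1* followed *Gadd45b* at -2.19, but it is 1 of the 8 genes that the rule limits. *Cav1*, a coat protein of caveolae, stood at -1.73, *Fam111a*, a protease, at -2.12 and *Pa2g4*, a growth regulator, at -1.55. Of the 15 lowest genes without mixed barcodes, 7 were at least 2-fold lower in other microglia too.

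Chaperone genes of the endoplasmic reticulum were lower in CO quiet microglia. They belong to the unfolded protein response, in which protein overload in that compartment activates ATF6, IRE1 and PERK, and the factors below them raise chaperones and degradation genes. *Hspa5*, which encodes the central chaperone BiP, had 529, 498 and 459.9 CPM in the CO libraries, against 1041, 965 and 915 CPM in the NC libraries. The highest CO library lay below the lowest NC library by a wide margin, at a ratio of -0.97 (-1.05 to -0.90). It was detected in 51.0% of CO and 69.2% of NC quiet cells at 2000 UMIs (71.1% of CO and 85.8% of NC at full depth). *Manf*, a secreted protective factor of the same response, had 270.3, 212 and 231 CPM in the CO libraries, against 463, 531 and 458 CPM in the NC libraries, without overlap, at -1.01 (-1.12 to -0.91). *Creld2*, a related target, had 30.0, 16.6 and 15.2 CPM in the CO libraries, against 55.0, 48.5 and 40.5 CPM in the NC libraries, without overlap, at -1.20 (-1.55 to -0.86).

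Lower ratios ran through the list. Of 24 measured genes of the unfolded protein response and the related integrated stress response 19 had a ratio below 0 and 5 above it, with a median of -0.25. The interval lay below 0 for 16 genes and above 0 for 3, beside 24.1% and 24.9% of all genes. The median was -0.32 in thinned cells, -0.29 without mixed barcodes and -0.29 in other microglia. Per cell thinned to 2000 UMIs, the list held a median of 12 UMIs in CO and 16 UMIs in NC quiet cells, the same medians in each library of a group. Other microglia held 14 UMIs in CO and 19 UMIs in NC. The disulfide isomerase gene *Pdia4* stood at -0.75 (-0.93 to -0.57), *Dnajb9*, a BiP cochaperone, at -0.71 (-0.84 to -0.58), and *Sdf2l1* at -0.68 (-0.77 to -0.59). *Sesn2*, a stress-induced metabolic regulator, stood at -0.82 (-1.09 to -0.54), while *Xbp1*, the factor below IRE1, had an interval across 0 at -0.17 (-0.57 to 0.22).

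The members of the list with an interval above 0 were *Herpud1*, *Ddit4* and *Atf3*. *Herpud1*, which serves the degradation of misfolded proteins, had 385, 366 and 331 CPM in the CO libraries, against 192, 182 and 182 CPM in the NC libraries, without overlap, at 0.96 (0.84 to 1.08), and stood at 0.50 in other microglia. *Ddit4*, an inhibitor of mTORC1, had 284, 344 and 283 CPM in the CO libraries, against 148, 219.9 and 178 CPM in the NC libraries, also without overlap, at 0.74 (0.62 to 0.87), against -0.25 in other microglia. *Atf3*, a transcription factor of the integrated stress response and an immediate early gene, stood at 1.01 (0.79 to 1.23), but at 0.13 in thinned cells.

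Promoter sequences show which of these genes carry the element that ATF6 and XBP1 read. RefSeq promoters (build GRCr8, from 250 bases before to 50 bases after the start site) were found for 20 of the 24 genes. They were searched on both strands for the endoplasmic reticulum stress element, which is CCAAT and CCACG separated by any 9 bases. It was found in 7 of the 20, which is 35%, in 21 of all 27457 promoters, which is 0.0765%, and in 14 of the 7926 promoters of genes with at least 30 UMIs, which is 0.177%. The sites are shown with up to 20 bases on each side, read 5′ to 3′ on the strand of the gene, with the element in capitals, because the genes with the lowest ratios and those with little change can be compared by eye. The element stands in the reverse orientation in *Creld2* and *Calr*, and *Hsp90b1* has a second one, which is not shown.
*Hspa5* (chr3:38452953-38453011, plus strand): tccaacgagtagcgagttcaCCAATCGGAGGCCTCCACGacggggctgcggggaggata
*Creld2* (chr7:121789219-121789277, plus strand): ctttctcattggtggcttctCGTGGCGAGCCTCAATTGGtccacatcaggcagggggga
*Calr* (chr19:40213117-40213173, plus strand): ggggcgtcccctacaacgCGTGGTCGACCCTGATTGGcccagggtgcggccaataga
*Hsp90b1* (chr7:23012431-23012489, minus strand): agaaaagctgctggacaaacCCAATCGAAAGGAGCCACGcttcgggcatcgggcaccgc
*Dnajc3* (chr15:102432514-102432572, plus strand): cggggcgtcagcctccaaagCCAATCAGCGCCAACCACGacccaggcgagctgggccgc
*Xbp1* (chr14:84604538-84604596, plus strand): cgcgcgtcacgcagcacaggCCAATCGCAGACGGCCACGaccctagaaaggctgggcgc
*Canx* (chr10:35158049-35158107, minus strand): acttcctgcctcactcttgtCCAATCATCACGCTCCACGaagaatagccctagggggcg

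Genes of the list with and without the element had similar medians. Of the 7 genes that carry it, 6 had a ratio below 0, with a median of -0.27, and of the 13 with a promoter and no match, 10 did, with a median of -0.24. *Hspa5* and *Creld2* led, at -0.97 and -1.20. The chaperones *Calr*, *Hsp90b1* and *Dnajc3* stood at -0.45 (-0.50 to -0.39), -0.26 (-0.32 to -0.20) and -0.27 (-0.46 to -0.08). *Canx*, calnexin, carries the element as well and stood at 0.06 (-0.01 to 0.13). A match is only a description of the letters in this window.

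Heat shock genes lay on both sides of 0 at full depth and mostly below it in thinned cells. The 3 heat shock genes of the rule were left out of this list. Of 19 measured genes 12 had a ratio below 0 and 7 above it, with a median of -0.07. The interval lay below 0 for 7 and above 0 for 4, beside 24.1% and 24.9% of all genes. Thinned cells had 2 ratios above 0 and 17 below it. The median was -0.24 in thinned cells, -0.36 in cells with none of the 8 genes, -0.12 without CO replicate 02, -0.12 without NC replicate 01, -0.034 without NC replicate 02 and -0.27 in other microglia, where 18 of the 19 genes had a ratio below 0. *Hsph1*, an HSP110 that reloads HSP70, had 406, 471 and 557 CPM in the CO libraries, against 671, 662 and 904 CPM in the NC libraries. No libraries overlapped and the ratio was -0.65 (-0.72 to -0.57). *Hspa1b*, the inducible HSP70, had 990.1, 886 and 867 CPM in the CO libraries, against 1117, 1240.03 and 1340.2 CPM in the NC libraries, without overlap, at -0.43 (-0.48 to -0.37). *Dnaja1*, an HSP40 cochaperone, had 1548, 1716 and 1739 CPM in the CO libraries, against 1225, 1278 and 1284 CPM in the NC libraries, without overlap in the other direction, at 0.40 (0.35 to 0.45). It stood at -0.016 in cells with up to 2 of the 8 genes and at -0.08 in other microglia. *Hspb1*, the small heat shock protein HSP27, stood at 0.41 (0.34 to 0.49) here, at -0.09 in thinned cells, at -0.18 in cells with up to 2 of the 8 genes and at -0.27 in other microglia.

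Heat shock elements were searched in the same windows, on both strands, as GAA, TTC and GAA separated by any 2 bases each. They were found in 6 of 15 promoters of the list, which is 40%, against 0.736% of all promoters and 0.492% of promoters of genes with at least 30 UMIs. The genes *Hsph1* and *Dnaja1* both carry one and lay on opposite sides of 0, so their sites are printed, with the element in capitals.
*Hsph1* (chr12:10427312-10427364, plus strand): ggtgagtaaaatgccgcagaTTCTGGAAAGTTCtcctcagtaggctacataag
*Dnaja1* (chr5:60638393-60638445, plus strand): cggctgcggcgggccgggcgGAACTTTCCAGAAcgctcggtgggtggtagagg
Of the 6 genes with the element 3 had a ratio above 0 and 3 below it.

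Immediate early genes, transcription factors and regulators that appear within minutes of a stimulus, had a ratio above 0 more often than below it in CO quiet microglia at full depth. Of 24 measured genes 18 had a ratio above 0 and 6 below it, with a median of 0.40. The interval lay above 0 for 15 and below 0 for 3, beside 24.9% and 24.1% of all genes. The median was 0.25 without NC replicate 01. In other microglia 8 of them had a ratio above 0 and 16 below it, with a median of -0.09. The sign differed between the classes for *Fos*, the founding gene of the family, which had 354, 295 and 385 CPM in the CO libraries, against 244, 197 and 223 CPM in the NC libraries in quiet cells. The quiet libraries did not overlap, at a ratio of 0.64 (0.53 to 0.76), and other microglia stood at -0.17. *Egr2*, a zinc finger factor, had 13.6, 31.9 and 39.4 CPM in the CO libraries, against 5.89, 7.96 and 12.8 CPM in the NC libraries at 1.66 (1.14 to 2.21) in quiet cells, without overlap, and -0.11 in other microglia. *Klf6* stood at 0.85 (0.74 to 0.96) and *Jun* at 0.41 (0.36 to 0.45), while *Nr4a2*, an orphan nuclear receptor, was lower at -0.72 (-1.05 to -0.40).

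The depth at which the rule was read and its limit both moved these ratios. The median of the list was 0.014 in cells with up to 2 of the 8 genes and 0.39 in cells with at least 4000 UMIs. With the rule applied to thinned cells it was 0.09, *Fos* stood at -0.25, *Egr2* at 0.45 and *Klf2*, a shear stress and quiescence factor at 0.78 (0.34 to 1.24) in full cells, at -0.45. The median quiet cell held the same number in both groups: per cell of the main rule thinned to 2000 UMIs, the list held a median of 6 UMIs in CO and 6 UMIs in NC, in each library, with means of 13.6 UMIs and 12.4 UMIs. Other microglia held medians of 58 UMIs in CO and 66 UMIs in NC. Quiet cells with none of the 8 genes averaged 7.24 UMIs of the list in CO and 7.18 UMIs in NC, and those with 1 of the 8 averaged 17.9 UMIs in CO and 16.4 UMIs in NC.

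**Figure D4:**
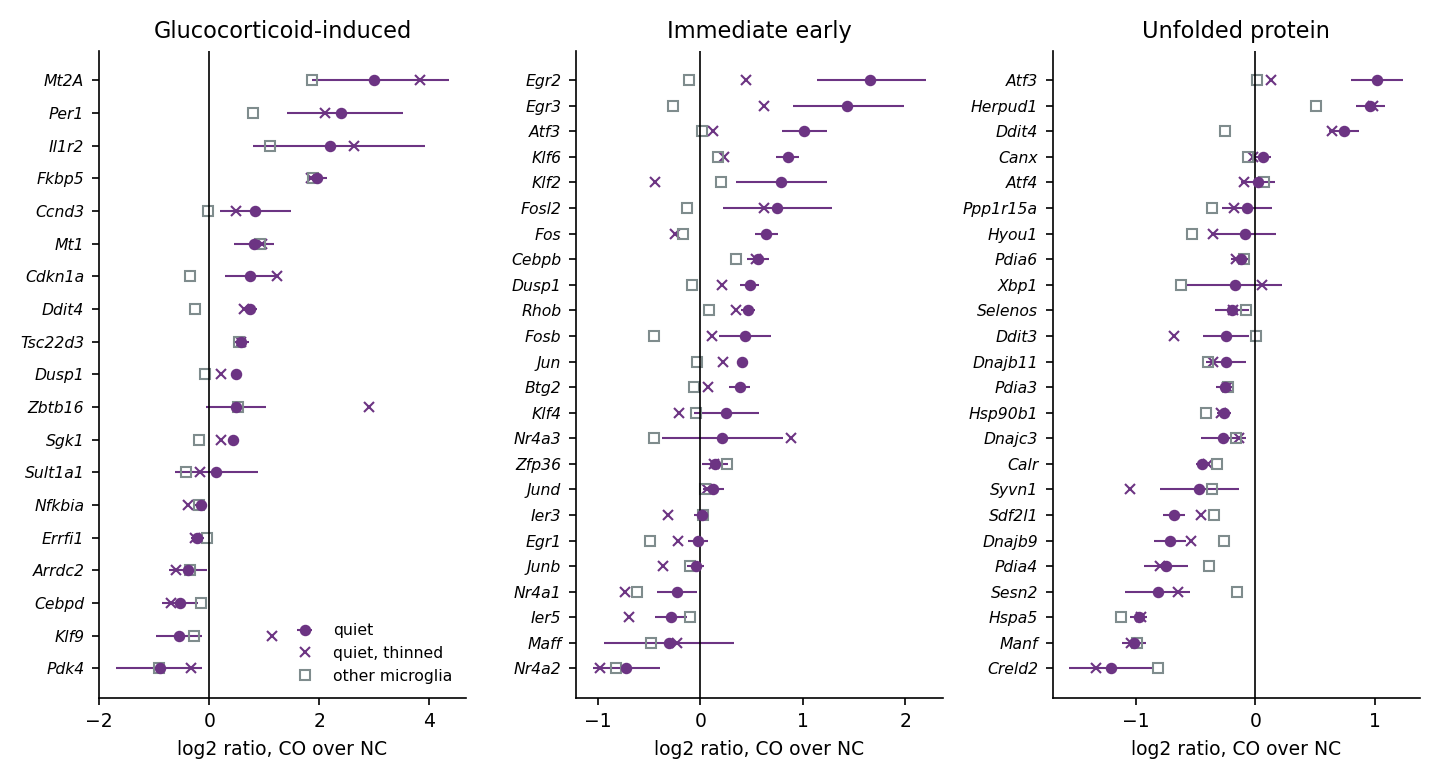
Log2 ratios of CO over NC are plotted for each measured gene of 3 lists, as filled circles with exact 95% counting intervals for quiet microglia, crosses for quiet microglia chosen and measured in cells thinned to 2000 UMIs, and open squares for other microglia. Of the 24 unfolded protein and integrated stress genes 19 lie left of 0 in quiet microglia, and immediate early genes lie right of 0 mainly for quiet microglia at full depth.

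Several genes that glucocorticoids induce were higher in CO quiet microglia. Corticosterone, the main glucocorticoid of the rat, binds the glucocorticoid receptor, which enters the nucleus and raises genes such as *Fkbp5*, *Per1* and *Tsc22d3* in most tissues. Of 19 measured genes of this list 13 had a ratio above 0 and 6 below it. The interval lay above 0 for 11 and below 0 for 6, beside 24.9% and 24.1% of all genes. At least 2-fold higher were 4 genes and none was 2-fold lower, beside 4.71% and 6.8% of all genes with at least 30 UMIs. Of the 4, *Fkbp5* alone had a mean log2 CPM of at least 4, and the others were *Per1*, *Mt2A* and *Il1r2*. The median was 0.48, or 0.59 in thinned cells and 0.72 without mixed barcodes, against -0.08 in other microglia. In other microglia 7 of the 19 genes had a ratio above 0 and 12 below it. At least 2-fold higher there were 3 genes and none was 2-fold lower, beside 167 and 329 of 9647 genes. The quiet median was 0.16 in cells with up to 2 of the 8 genes and 0.34 in cells with none. Per thinned cell the list held a median of 4 UMIs in CO and 3 UMIs in NC, and none in 6.21% of CO and 13.2% of NC quiet cells.

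The members behind this median were regulators of different kinds. *Per1*, a circadian clock repressor, had 14.7, 10.2 and 10.7 CPM in the CO libraries, against 2.62, 2.89 and 1.35 CPM in the NC libraries. Its counts were low, the libraries did not overlap, and the ratio was 2.39 (1.42 to 3.52), against 0.79 in other microglia. *Sgk1*, a kinase that controls ion transport, had 885, 1041 and 890.4 CPM in the CO libraries, against 710.3, 650.4 and 713 CPM in the NC libraries, without overlap, at 0.43 (0.37 to 0.50), and stood at -0.19 in other microglia. *Tsc22d3*, the anti-inflammatory protein GILZ, stood at 0.59 (0.45 to 0.73) and *Dusp1*, a MAP kinase phosphatase, at 0.48 (0.39 to 0.58). *Il1r2*, the decoy receptor of interleukin 1, had 27 UMIs in CO and 5 UMIs in NC at 2.19 (0.80 to 3.93). *Mt2A*, a metallothionein, had 66 UMIs in CO and 7 UMIs in NC, but was abundant elsewhere, with a UMI in 24.7% of CO and 5.95% of NC cells of the endothelial gate at 2000 UMIs (38.5% of CO and 11.4% of NC at full depth), against 1.88% of CO and 0.105% of NC quiet cells at 2000 UMIs (3.29% of CO and 0.421% of NC at full depth). *Klf9*, a zinc finger factor and a classic target, stood at -0.55 (-0.97 to -0.13) over all quiet cells, but at 1.09 without mixed barcodes.

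*Fkbp5* itself was seen in 38.9% of CO and 14.1% of NC quiet cells at 2000 UMIs (61.3% of CO and 24.1% of NC at full depth), in 4.01% of CO and 1.02% of NC cells of the endothelial gate at 2000 UMIs (11.6% of CO and 3.52% of NC at full depth) and in 21.5% of CO and 8.01% of NC cells of the oligodendrocyte gate at 2000 UMIs (54.3% of CO and 27.7% of NC at full depth). Its ratio without mixed barcodes was 1.92. Its ratio in other microglia was 1.89, close to that in quiet cells. The glucocorticoid response element, searched as the palindrome of GNACA and TGTNC separated by any 3 bases, was in none of the 16 promoters of measured list genes, against 0.422% of all promoters, and this says only that these letters are not in this window.

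NF-kB targets and genes of the pathway lay on both sides of 0. The targets *Il1a*, *Il1b*, *Ccl9* and *Icam1* are limited by the rule, so the list was read without them. Of 27 measured targets 18 had a ratio below 0 and 9 above it. The interval lay below 0 for 11 and above 0 for 7, beside 24.1% and 24.9% of all genes. The median was -0.15, or 0.057 over the members with a mean log2 CPM of at least 6. Beside *Gadd45b*, the targets at least 2-fold lower were *Cxcl10*, a chemokine for T cells, at -2.29 (-3.72 to -1.07), *Csf1*, the ligand of CSF1 receptor, at -1.26 (-1.83 to -0.70) and *Nfkbid*, a nuclear inhibitor protein, at -1.25 (-1.68 to -0.83). These 4 of 27 stand beside 6.8% of all genes with at least 30 UMIs, and *Gadd45b* and *Nfkbid* had a mean log2 CPM of at least 4, while *Cxcl10* and *Csf1* did not. *Csf1* stood at 0.29 in cells with none of the 8 genes, and *Cxcl10* at 0.40 in cells with up to 2 of them. The mitochondrial superoxide dismutase gene *Sod2* stood at -0.93 (-1.19 to -0.67) and *Bcl2a1*, an inhibitor of apoptosis, at -0.83 (-0.95 to -0.71). Higher in CO were the cytokine gene *Il6* at 0.86 (0.69 to 1.02) and *Rel*, a subunit of NF-kB, at 0.66 (0.41 to 0.92).

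*Nfkb1*, which encodes the p105 and p50 subunit, had 244, 291 and 259 CPM in the CO libraries, against 143, 134 and 155 CPM in the NC libraries. The CO libraries all lay above the NC libraries and the ratio was 0.87 (0.73 to 1.00), against 0.46 in other microglia. *Rela*, the transactivating subunit, stood at 0.29 (-0.03 to 0.62) and *Nfkbia*, the inhibitor IkB alpha, at -0.15 (-0.25 to -0.05). Upstream, the adaptor gene *Myd88* stood at -0.89 (-1.21 to -0.57) and the lipopolysaccharide receptor gene *Tlr4* at -0.57 (-0.84 to -0.30), with 0.09 and 0.02 in other microglia. The median of 19 pathway genes was 0.22, or 0.13, 0.12 and 0.12 without CO replicate 02, CO replicate 03 or NC replicate 02, and 5 had an interval above 0 and 4 below it, beside 24.9% and 24.1% of all genes.

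*Clcf1*, the cytokine named in the title of the study, had 0 UMIs in quiet microglia of both groups. At 3 counts, this allows up to 0.561 CPM in CO and 0.705 CPM in NC. Its signal reaches cells through CNTFR, LIFR and the shared subunit gp130, and then JAK kinases and STAT3. *Cntfr*, the binding subunit, had 8 UMIs in CO and 7 UMIs in NC. *Lifr* had 38 UMIs in CO and 3 UMIs in NC, so its ratio of 3.42 (1.77 to 5.77) rests on few counts. *Il6st*, which encodes gp130, had 189, 162 and 190.2 CPM in the CO libraries, against 156, 139.6 and 153 CPM in the NC libraries. All CO libraries lay above the NC libraries, at a ratio of 0.27 (0.12 to 0.42).

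Receptor and signalling genes of this axis with at least 30 UMIs lay on the same side. Of 16 genes of the list with an entry in the data, 9 outside the rule reached that minimum, and *Cntfr* did not. All 9 had a ratio above 0, beside 49.9% of all genes with at least 30 UMIs. The interval lay above 0 for 8 of them, beside 24.9% of all genes. Their median was 0.37 in quiet cells and 0.31 in other microglia. *Il6r*, the interleukin 6 receptor, had 514, 467 and 437 CPM in the CO libraries, against 347, 373 and 327 CPM in the NC libraries, without overlap, at 0.44 (0.35 to 0.54). *Jak1* stood at 0.47 (0.35 to 0.60) and *Stat3* at 0.27 (0.06 to 0.47). *Sort1*, sortilin, which binds several cytokines of this family, had 439, 445 and 446 CPM in the CO libraries, against 246, 256 and 227 CPM in the NC libraries, without overlap, at 0.87 (0.76 to 0.97).

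Efferocytosis genes split by receptor. Of 21 measured receptors and bridging proteins 12 had a ratio above 0 and 9 below it, with a median of 0.16. The interval lay above 0 for 10 and below 0 for 4, beside 24.9% and 24.1% of all genes. The median was 0.054 without CO replicate 01, 0.021 with no minimum count and 0.040 in cells with none of the 8 genes. *Mertk*, the receptor kinase that clears apoptotic cells, had 947, 1003 and 1071 CPM in the CO libraries, against 998, 1114 and 1023 CPM in the NC libraries. The groups overlapped, the ratio was -0.05 (-0.11 to 0.01), and other microglia stood at -0.46. Its relative *Axl* stood at 0.49 (-0.06 to 1.05), the ligand *Gas6* at 0.02 (-0.15 to 0.19) and the ligand *Pros1* at 0.31 (0.19 to 0.43). *Cd300a*, an inhibitory receptor for exposed phosphatidylserine, had 159, 169 and 132 CPM in the CO libraries, against 68.1, 67.3 and 59.4 CPM in the NC libraries, without overlap, at 1.23 (1.04 to 1.44), a 2.35-fold higher level. *Itgb3*, the integrin chain that binds MFGE8-coated cells, had 156, 194 and 224 CPM in the CO libraries, against 94.3, 91.9 and 89.2 CPM in the NC libraries, without overlap, at 1.06 (0.89 to 1.23). *Havcr2*, the phosphatidylserine receptor TIM-3, stood at 0.58 (0.48 to 0.67) and *Mfge8* at 0.42 (0.22 to 0.63). *Msr1*, the scavenger receptor A, had 43 UMIs in CO and 85 UMIs in NC at -1.22 (-1.79 to -0.68), and *Megf10*, an engulfment receptor, had 2 UMIs in CO and 93 UMIs in NC, with 0 CPM in both groups once mixed barcodes were left out.

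Genes that carry cargo inside the cell lay near 0 as a list. Of 29 measured engulfment and phagosome genes the interval lay above 0 for 11 and below 0 for 3, beside 24.9% and 24.1% of all genes. Their median of 0.08 was -0.0081 when libraries were scaled by total counts and 0.032 without NC replicate 01. *Rab20*, a GTPase of phagosome maturation, had 93.2, 87.5 and 69.8 CPM in the CO libraries, against 42.5, 45.6 and 60.1 CPM in the NC libraries, without overlap, at 0.76 (0.52 to 1.00). *Abca1* and *Abcg1*, which export cholesterol, stood at 0.51 (0.39 to 0.62) and 0.64 (0.47 to 0.81). *Dock1*, an activator of Rac, was lower at -1.08 (-1.49 to -0.69). Of 36 lysosomal genes 28 had a ratio above 0, with a median of 0.20. The interval lay above 0 for 22 and below 0 for 4, beside 24.9% and 24.1% of all genes. Among them *Grn*, progranulin, stood at 0.50 (0.43 to 0.57) and *Npc1*, the lysosomal cholesterol exporter, at -0.41 (-0.59 to -0.23).

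Complement and disease-associated genes lay mostly above 0. *C3*, the central complement component, had 304, 377 and 383 CPM in the CO libraries, against 149, 134 and 116 CPM in the NC libraries. Each CO library held more than each NC library, at a ratio of 1.41 (1.28 to 1.55), and other microglia stood at 1.52. It was detected in 37.2% of CO and 16.3% of NC quiet cells at 2000 UMIs (53.7% of CO and 25.9% of NC at full depth), against 0.490% of CO and 0.211% of NC cells of the endothelial gate at 2000 UMIs (0.936% of CO and 0.387% of NC at full depth). Of 15 complement genes the interval lay above 0 for 7 and below 0 for 1, beside 24.9% and 24.1% of all genes. The 1 below was the C5a receptor gene *C5ar1* at -0.45 (-0.67 to -0.23). Of 20 genes of the disease-associated state 14 had a ratio above 0, beside 49.9% of all genes, with a median of 0.22, or 0.057 in cells with none of the 8 genes. The interval lay above 0 for 12 and below 0 for 4, beside 24.9% and 24.1% of all genes. In other microglia 15 of the 20 had a ratio above 0 and 5 below it, with a median of 0.26. *Tyrobp*, the signalling adaptor of TREM2, stood at 0.53 (0.49 to 0.57). *Gpnmb*, a glycoprotein of lipid-laden microglia, had 40 UMIs in CO and 1 UMI in NC, and *Lgals3*, galectin 3, had 58 UMIs in CO and 10 UMIs in NC, so both were rare. *Igf1*, a growth factor of that state, was lower at -0.48 (-0.66 to -0.30).

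Lists of interferon, hypoxia, heme, NRF2 and glycolysis genes had medians from -0.15 to 0.19, and ribosomal protein genes lay mostly above 0. Beside *Ifit2*, the interferon list was modest, with 21 of 30 ratios above 0 and a median of 0.19. The interval lay above 0 for 10 and below 0 for 5, beside 24.9% and 24.1% of all genes. The median was 0.072 without CO replicate 02 and 0.11 without NC replicate 01. *Oasl2*, an antiviral protein of the oligoadenylate synthase family, stood at 0.63 (0.47 to 0.80), and *Irf1*, a factor of interferon gamma signalling, was lower at -0.66 (-0.90 to -0.42). Targets of hypoxia-inducible factor had a median of -0.12, with *Vegfa*, the vascular growth factor, at 4 UMIs in CO and 28 UMIs in NC and *P4ha1*, a collagen hydroxylase subunit, at 0.32 (0.26 to 0.38). Heme oxygenase 1, which degrades heme and releases carbon monoxide, is encoded by *Hmox1*, which had 366, 399.8 and 329.8 CPM in the CO libraries, against 427, 456 and 419 CPM in the NC libraries. The NC libraries lay above the CO libraries by a small step, at -0.25 (-0.35 to -0.16), against -0.65 in other microglia. *Flvcr1*, a heme exporter, had 61.0, 57.5 and 68.7 CPM in the CO libraries, against 32.7, 21.7 and 33.8 CPM in the NC libraries, without overlap, at 1.08 (0.78 to 1.38), while the transferrin receptor gene *Tfrc* was lower at -1.03 (-1.44 to -0.63). The median was -0.07 for heme and iron genes, -0.15 for NRF2 targets and 0.07 for glycolysis genes. Without NC replicate 01 the medians were 0.0019 for heme and iron genes, -0.016 for NRF2 targets and -0.051 for hypoxia targets, and without NC replicate 02 they were 0.13 for glycolysis genes and -0.067 for hypoxia targets. The median of heme and iron genes was -0.0027 without CO replicate 02 and -0.018 without NC replicate 03, and that of NRF2 targets was -0.037 without CO replicate 01. The peroxidase gene *Prdx1* of the NRF2 programme stood at -0.55 (-0.67 to -0.44). Of 66 cytosolic ribosomal protein genes, a list added after seeing the data, 63 had a ratio above 0, beside 49.9% of all genes. The interval lay above 0 for 55 and below 0 for 1, beside 24.9% and 24.1% of all genes. The median of these ribosomal genes was 0.23 here and 0.28 in other microglia.

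**Figure D5:**
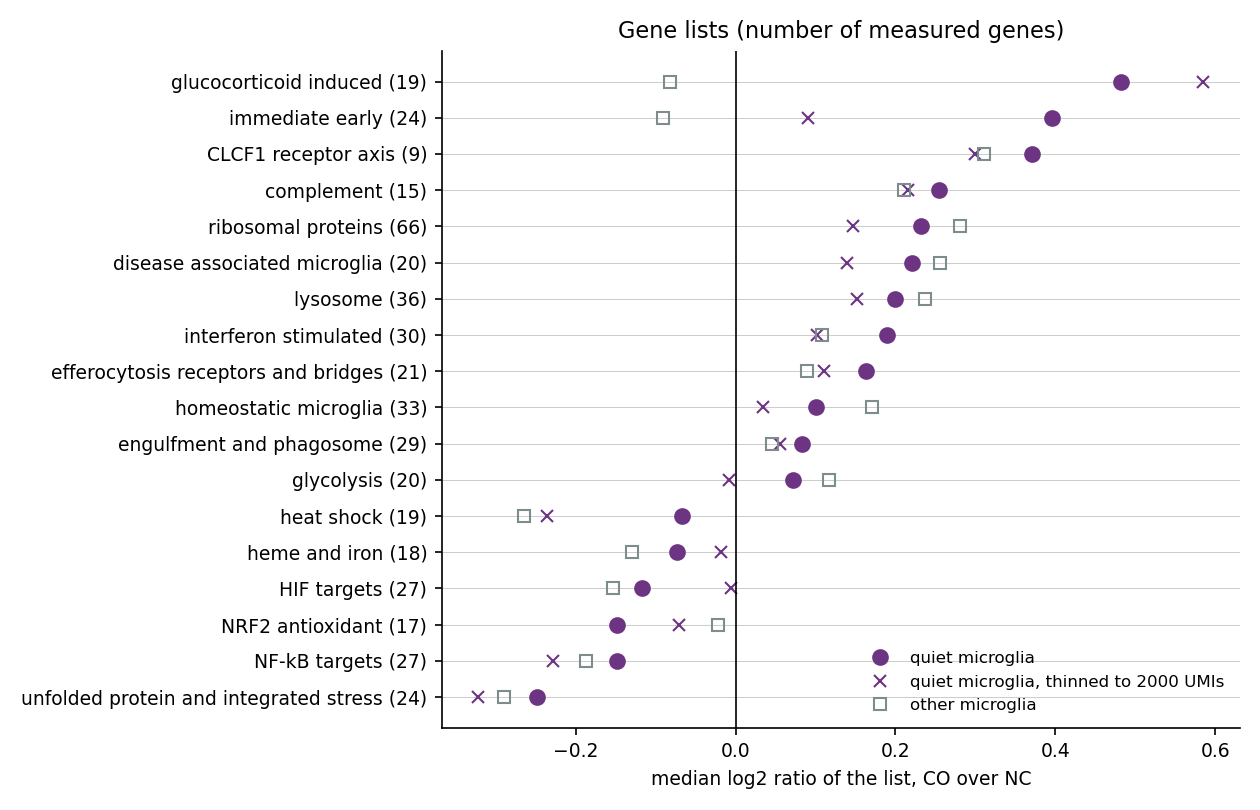
The median log2 ratio of CO over NC is plotted for 18 gene lists, with the number of measured genes in parentheses, as filled circles for quiet microglia, crosses for quiet microglia at 2000 UMIs per cell and open squares for other microglia. The glucocorticoid list lies at 0.48 and 0.59 in quiet microglia and at -0.08 in other microglia, and the unfolded protein list lies below 0 in all 3. A median does not show single genes: in other microglia 3 of the 19 glucocorticoid genes were at least 2-fold higher and none was 2-fold lower.

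Set against other microglia of the same group, quiet microglia differed far beyond the 8 genes that chose them, which is a description since the same cells were used. At least 2-fold lower in quiet cells were 305 of 6397 genes in CO, which is 4.77%, and 355 of 6716 genes in NC, which is 5.29%. At least 2-fold higher were 18 genes in CO, which is 0.281%, and 34 genes in NC, which is 0.506%. The genes of the rule were left out of these counts. *Atf3* stood at -3.63 in CO and -4.64 in NC (log2 of quiet over other), *Fos* at -3.16 in CO and -3.99 in NC, and *Egr1* at -3.03 in CO and -3.51 in NC. *Dnajb1*, a heat-induced cochaperone, stood at -3.20 in CO and -3.49 in NC, and *Nr4a1*, an orphan nuclear receptor, at -3.02 in CO and -3.42 in NC. The neutrophil chemokine gene *Cxcl2* stood at -4.01 in CO and -4.04 in NC, and *Clic4*, an intracellular chloride channel protein, at -3.18 in CO and -3.30 in NC. The gap to other microglia was narrower in CO than in NC for *Atf3*, *Fos* and *Egr1*, and that difference was not tested.

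By list, the distance between the classes was widest for transcription that responds to stimuli. The median of quiet over other was -2.43 in CO and -2.56 in NC for immediate early genes, -2.03 in CO and -1.74 in NC for NF-kB targets, and -1.86 in CO and -1.85 in NC for heat shock genes. The median of unfolded protein genes lay close to 0, at -0.05 in CO and 0.04 in NC, as did that of homeostatic genes at 0.09 in CO and 0.18 in NC. Single unfolded protein genes lay further off. Of the 24, 4 in CO and 5 in NC were at least 2-fold lower in quiet cells, *Atf3* among them. Over all 9647 genes outside the rule with at least 30 UMIs, 711 in CO and 691 in NC were. The highest ratios in quiet cells were modest. *Trpv3* stood at 1.35 in CO and 0.69 in NC, and *Leng8*, a nuclear RNA-binding protein, at 1.04 in CO and 1.31 in NC. Others of this set were *Ankrd16*, *Fam8a1*, *Osgepl1*, *Tmed8*, *Abraxas1*, *Sh2d1b*, *Aasdh* and *Fbxl20*, and over the 10 genes the ratios ran from 0.76 to 1.35 in CO and from 0.69 to 1.31 in NC.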

How the data were processed

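The deposited files hold raw counts of UMIs per gene and barcode for each library, not normalized, per the file headers and values. Per the submitters' processing notes, reads went through Cell Ranger, of a version the sources leave out, with the rat build Rnor_6.0. Barcodes with at least 2000 UMIs entered the rule, no gene was used for further filtering, and doublets were kept in the main analysis, with Scrublet (scanpy 1.11.5) run per library as an alternative. In CO libraries 01 and 03 Scrublet called 2 barcodes each, so there the highest 6% of scores were removed. Across 15 library pairs 1 barcode sequence was shared, and none among quiet cells. Counts were summed per group, scaled by TMM (edgeR 4.0.16, R 4.3.3) and compared as ratios with exact conditional binomial intervals (scipy 1.17.1). A count of 0 was set to the floor of 3 for ratios. Tested on simulated counts of this comparison, the intervals covered the simulated ratio in 96.0% of 9442 genes without a change and in 93% of 100 genes changed 4-fold. The call marked all of the 4-fold, 56% of the 2-fold and 0.339% of the unchanged genes. Intervals and floors cover counting error only, and free RNA can add UMIs to any cell. Levels are not compared between genes. Thinning drew 2000 UMIs per cell at random with a fixed seed. Alternatives were DESeq2 size factors (1.42.0) or total counts in place of TMM, other filters, UMI minimums and limits of the rule, thinned counts, removed doublets, each library left out, and edgeR's quasi-likelihood test with libraries as replicates.

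The members, gene lists and tests were chosen with earlier results of these data known, and the ribosomal list and the removal of mixed barcodes were added after seeing the values. Genes were named by rule: the 15 highest and 15 lowest CO over NC ratios with a symbol and no overlap between libraries, the 10 highest and lowest quiet over other ratios in the same direction in all 6 libraries, up to 4 largest changes of each list, and genes of the question. Members outside that rule (among them *Herpud1*, *Sgk1*, *Dnaja1*, *Sall1*, *Per1* and *Hsp90b1*) were named after their values were seen. Promoters are RefSeq sequences of build GRCr8, matched by symbol. Some genes that these rules name are not reported here.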

Additional observations from a re-analysis of the deposited data

How the results depend on the processing

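The counts of genes at least 2-fold apart depended on the filter on low levels, the depth and the limit of the rule. Genes at least 2-fold higher in CO numbered 101, against 37 with a mean log2 CPM of at least 6, 207 in cells with none of the 8 genes and 60.0 in cells with up to 2 of them. Genes at least 2-fold lower numbered 143, against 20.0 with a mean log2 CPM of at least 6, 92 in thinned cells, 222 in cells with at least 4000 UMIs and 80.0 without mixed barcodes. The quiet share differed by -0.0912 percentage points (CO minus NC), against 4.34 with all genes thinned, 3.28 with only the 8 genes thinned, 1.91 with up to 2 of the 8 genes and 1.68 at 4000 UMIs. Leaving out each library in turn moved this difference between -0.475 and 0.410 points. The counts between quiet and other microglia stayed within 1.5 times under the alternatives run.

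Pairing of the libraries by number was tried with edgeR's quasi-likelihood test, with libraries as replicates. Genes at least 2-fold higher and lower at a false discovery rate under 0.05 numbered 96 and 133 without the replicate block and 97 and 136 with it. Whatever their fold, 1475 of 9668 genes passed without the replicate block and 1501 with it; these p-values measure a spread between libraries that is that of cells.

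Single genes named above changed sign under some alternatives, and the cause was not tested. In cells with none of the 8 genes, the log2 ratio was -0.88 for *Atf3*, -0.92 for *Il1r2*, -0.095 for *Jun*, -0.032 for *P4ha1*, -0.030 for *Trem2*, -1.31 for *Tnfsf18*, 0.29 for *Csf1*, 2.14 for *Cxcl2*, 0.65 for *Klf9*, 0.22 for *Nfkbia*, 0.67 for *Nr4a1*, 0.27 for *Tfrc*, 0.41 for *Slain1* and 1.06 for *Tmeff2*. With up to 2 of the 8 genes, it was -0.23 for *Atf3*, -0.22 for *Bag3*, -0.016 for *Dnaja1*, -0.19 for *Dnaja4*, -0.059 for *Fos*, -0.18 for *Hspb1* and 0.40 for *Cxcl10*. In cells thinned to 2000 UMIs, it was -0.080 for *Dnaja4*, -0.25 for *Fos*, -0.086 for *Hspb1*, -0.45 for *Klf2*, 1.15 for *Klf9*, 0.51 for *Megf10* and 0.075 for *Npc1*. *Klf9* stood at 1.09 without mixed barcodes and *Cd74* at 0.046 in cells with at least 4000 UMIs. Leaving out single libraries moved *Bag3* between -0.055 and 0.40, *Cxcl2* between -0.97 and 1.03 and *Nfkbia* between -0.29 and 0.015. The medians of lists close to 0 could cross it: that of engulfment genes was -0.0081 with total counts in place of TMM and -0.045 with none of the 8 genes, and that of NF-kB targets 0.057 with a mean log2 CPM of at least 6. Those of glycolysis, heme and hypoxia genes crossed 0 under some alternatives as well.

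With 1 sample a group, no spread between animals stands behind any ratio. Genes with few UMIs have wide intervals, and quiet cells, chosen by what was not detected, include cells in which transcripts were present but not captured.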
